A study of Mus musculus with 12 samples.

Results

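The genes that encode the constitutive proteasome were followed in hearts of male C57Bl/6J mice, 12 weeks old. They were chosen by name, as symbols that begin with Psma, Psmb, Psmc or Psmd and a digit, without the immunoproteasome genes Psmb8, Psmb9 and Psmb10 and without pseudogenes. The rule found 36 of the 15318 genes listed in all 4 deposited tables. Of these, 14 encode the 20S core in the heart, 17 encode the 19S regulatory particle and 3 (Psmd5, Psmd9 and Psmd10) encode chaperones that help the 19S base to assemble. The remaining pair met the rule by name only in this tissue. Psma8 encodes a testis form of an alpha subunit, and Psmc3ip encodes a factor of meiotic recombination that is no proteasome subunit.

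The study crossed diet with surgery in 4 groups of 3 libraries. Leucine, isoleucine and valine, known as branched-chain amino acids (BCAA), were present in the control diet and left out of the BCAA-free diet. Both diets held 1% propionate, so no group was without it. Feeding began 4 days ahead of the operation, which was either sham surgery or TAC (transverse aortic constriction), in which the aorta is tied to a smaller bore so that the left ventricle pumps against a higher pressure. Hearts were taken 1 week later. Groups are named by diet and operation below, as in control sham or BCAA-free TAC. The labels do not tie each library to a mouse of its own, so the tests measure the spread between libraries, which may be technical. In whole-heart RNA, fewer cells of a type and less RNA per cell cannot be told apart.

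The proteasome is the protease of the nucleus and cytosol that degrades proteins tagged with ubiquitin. Its 20S core is a barrel of stacked rings: the outer alpha rings hold the gate, and the inner beta rings hold the active sites on the subunits encoded by Psmb5, Psmb6 and Psmb7. The 19S particle caps the barrel. Its base contains a ring of ATPases (Psmc1 to Psmc6) that unfolds the substrate, the scaffolds Psmd1 and Psmd2 and the ubiquitin receptor Psmd4, and its lid contains the deubiquitinase Psmd14 and scaffold subunits. Subunit genes are known to be transcribed together, in part through the factor Nfe2l1 (Nrf1) when proteasome activity falls. In heart muscle the proteasome takes part in the turnover of contractile proteins.

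Stretches of 120 bases before the start of transcription are shown for the 3 genes that passed a test, for Psmb5, which had the highest level per length, and for Psmd2, whose level varied least between libraries. They are RefSeq sequences of build GRCm38.p6, 5′ to 3′ on the gene's strand, and each ends just before the most upstream start in RefSeq or GENCODE. Psmd8 lies at chr7:29180702-29180821 (- strand), Psmc4 at chr7:28050102-28050221 (- strand), Psma5 at chr3:108256806-108256925 (+ strand), Psmb5 at chr14:54618023-54618142 (- strand) and Psmd2 at chr16:20651532-20651651 (+ strand). Capitals mark matches to the motifs described next.
Psmd8: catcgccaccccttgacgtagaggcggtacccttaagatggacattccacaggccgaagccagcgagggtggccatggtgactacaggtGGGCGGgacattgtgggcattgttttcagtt
Psmc4: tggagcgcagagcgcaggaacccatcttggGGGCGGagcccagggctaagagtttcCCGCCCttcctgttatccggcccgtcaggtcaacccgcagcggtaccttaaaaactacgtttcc
Psma5: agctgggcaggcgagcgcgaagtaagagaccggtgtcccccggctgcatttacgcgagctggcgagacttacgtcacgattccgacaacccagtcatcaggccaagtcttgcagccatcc
Psmb5: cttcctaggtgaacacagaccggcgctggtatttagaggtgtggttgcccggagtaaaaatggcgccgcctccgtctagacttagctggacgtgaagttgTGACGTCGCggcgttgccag
Psmd2: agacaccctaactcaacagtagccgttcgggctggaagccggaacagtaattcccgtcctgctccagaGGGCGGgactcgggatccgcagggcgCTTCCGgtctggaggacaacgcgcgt

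The motifs were searched on both strands of RefSeq windows from 250 bases before to 50 bases after the start, which were found for 29 of the 36 members (31 windows). The core of the antioxidant response element, TGACNNNGC, the type of site that Nfe2l1 recognises, was present in 5 member windows (16.1%), against 14.4% of the 14093 windows of genes listed in the tables and 12.4% of all 32851 windows. The genes were Psmb5, Psmb6, Psmc6, Psmd9 and Psmd12. The CCAAT box (CCAAT) was in 12 member windows (38.7%, against 37.1% of listed genes), and the GC box (GGGCGG) in 18 (58.1%, against 60.0%). A core bound by ETS factors, CGGAAG, was in 19 member windows (61.3%), against 28.2% of the windows of listed genes and 16.9% of all windows. This core was added to the search after the sequences had been read. No match overlapped another in the printed stretches, and the matches describe letters only. In GENCODE M21 the gene bodies of the members named most below are chr7:29174188-29180701 for Psmd8, chr7:28041707-28050101 for Psmc4, chr3:108256926-108279974 for Psma5 and chr13:14613240-14674236 for Psma2. The catalytic genes are at chr14:54614119-54618022 for Psmb5, chr11:70525367-70527858 for Psmb6 and chr2:38588036-38644087 for Psmb7.

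Levels between genes were compared per length, as reads per kilobase of exon scaled to the same total in each library. Over the 31 subunit genes other than Psma8, the median of the 12 libraries ran from 25.7 for Psmd11, a scaffold of the lid, to 235 for Psmb5, a 9.17-fold range. The catalytic beta subunits stood at 235 (Psmb5), 140.5 (Psmb6) and 84.8 (Psmb7). The alpha genes other than Psma8 ran from 41.0 (Psma2) to 198 (Psma6), and the 4 other beta genes from 40.9 (Psmb1) to 148 (Psmb4).

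Within the 19S particle, the 6 ATPase genes ran from 42.6 (Psmc6) to 179 (Psmc3) and the 8 lid genes from 25.7 (Psmd11) to 103 (Psmd7). The base scaffold Psmd2 had a level per length of 129, Psmd1 had 38.6 and the ubiquitin receptor Psmd4 had 81.9. As background, each of these subunits is present in equal number in the assembled particle. The 3 chaperone genes lay below every subunit gene, at 4.76 (Psmd5), 5.53 (Psmd9) and 15.9 (Psmd10). Psmc3ip had a level of 3.02 and Psma8 had the lowest level, 0.568. With the length of the longest transcript in place of all exons, the range over the subunits was 5.54-fold. Psmb6 (228) then took the place of Psmb5 (197) as the highest, and Psmd14 (41.2) that of Psmd11 (46.1) as the lowest.

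**Figure D1:**
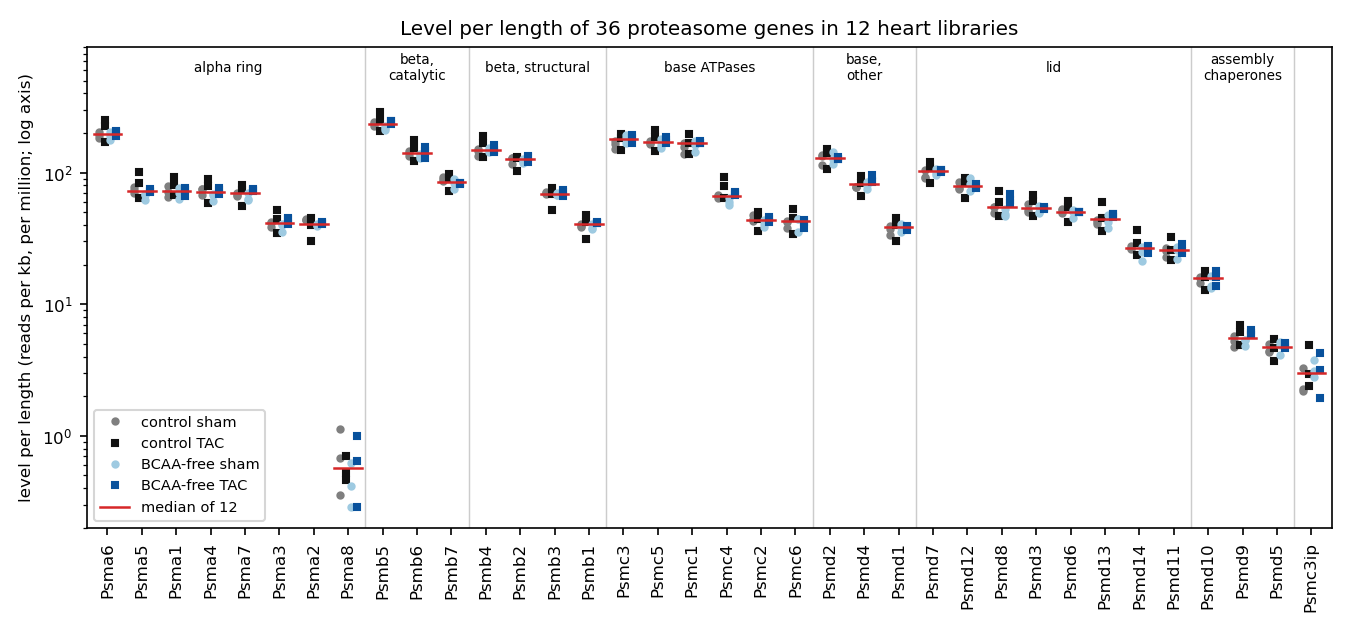
Level per length (reads per kilobase of exon, scaled to the same total in each library, log axis) of the 36 genes, ordered by role and then by median. Points are libraries, coloured by group, and red lines are medians of 12 libraries. Psmb5 stands highest at 235 and Psma8 lowest at 0.568.

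Levels per length shifted together in 2 libraries. Control TAC replicate 2 held the lowest value of 25 of the 31 subunit genes, and control TAC replicate 1 the highest value of 29. Replicate 2 is the library with the most polymerase III RNA (3 short genes summing to 122 CPM, the reads scaled to the total of each library, against 1.59 to 26.3 in the other libraries), and the part of this RNA in its levels per length was not tested. Replicate 3 of the same group had the most liver transcripts (50.8 CPM over the 3 liver markers listed, against 12.3 to 20.3). Markers of cardiomyocytes, 8 of 8 listed, summed to 86603 to 88275 CPM in control sham and 84097 to 89642 in control TAC. On the BCAA-free diet they summed to 89637 to 92123 CPM in sham and 89678.5 to 99327 in TAC hearts, so the sham groups did not overlap. To compare libraries, the levels below are therefore CPM scaled over the 12 libraries by the trimmed mean of M-values (TMM), which takes the change of most genes as 0.

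On that scale the 31 subunit genes together varied little. Their sum was 3141 ± 45.3 CPM (SD, n = 3) in control sham, 3184 ± 65.0 in control TAC, 3114 ± 74.9 in BCAA-free sham and 3195 ± 78.2 in BCAA-free TAC. The highest library exceeded the lowest by 1.08-fold, and the groups overlapped. Without TMM scaling the sum was 3088 to 3132 CPM in control sham and 3176 to 3426 in control TAC. It was 3096 to 3113 CPM in BCAA-free sham and 3114 to 3173 in BCAA-free TAC, so the unscaled sham and TAC libraries did not overlap on either diet. Mitochondrially encoded transcripts took 18.3% to 20.4% of reads in sham hearts and 16.4% to 17.8% in TAC hearts. Their part in the unscaled difference was not tested.

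The sums of the core and of the regulatory particle were also close between groups. The 14 core genes summed to 1323 ± 36.6, 1325 ± 25.9, 1273 ± 47.7 and 1319 ± 36.7 CPM (SD, n = 3), in the order control sham and TAC, then BCAA-free sham and TAC. The 17 genes of the 19S particle summed to 1819 ± 15.7, 1859 ± 39.5, 1841 ± 32.9 and 1875 ± 47.6 CPM in the same order. The ratio of core to 19S transcripts was 0.727 ± 0.0186, 0.712 ± 0.00322, 0.692 ± 0.0192 and 0.704 ± 0.0144. The libraries of the groups overlapped in the core sum, and no test was made of these sums.

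Single subunit genes were steady too. The standard deviation over the 12 libraries, groups included, was between 0.04 (Psmd2) and 0.14 (Psmd8) on the log2 CPM scale, with a median of 0.07. All 31 were below the median of the 15318 genes (0.19), and 30 were below the median of the 8459 genes with a mean of at least 10 CPM (0.13), a set that held all 31. Counting error adds to the spread of lower genes, so a comparison of spread across genes depends on level. Psma8, with 0.326 to 1.24 CPM, and Psmc3ip, with 1.63 to 3.67 CPM, had standard deviations of 0.53 and 0.35.

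**Figure D2:**
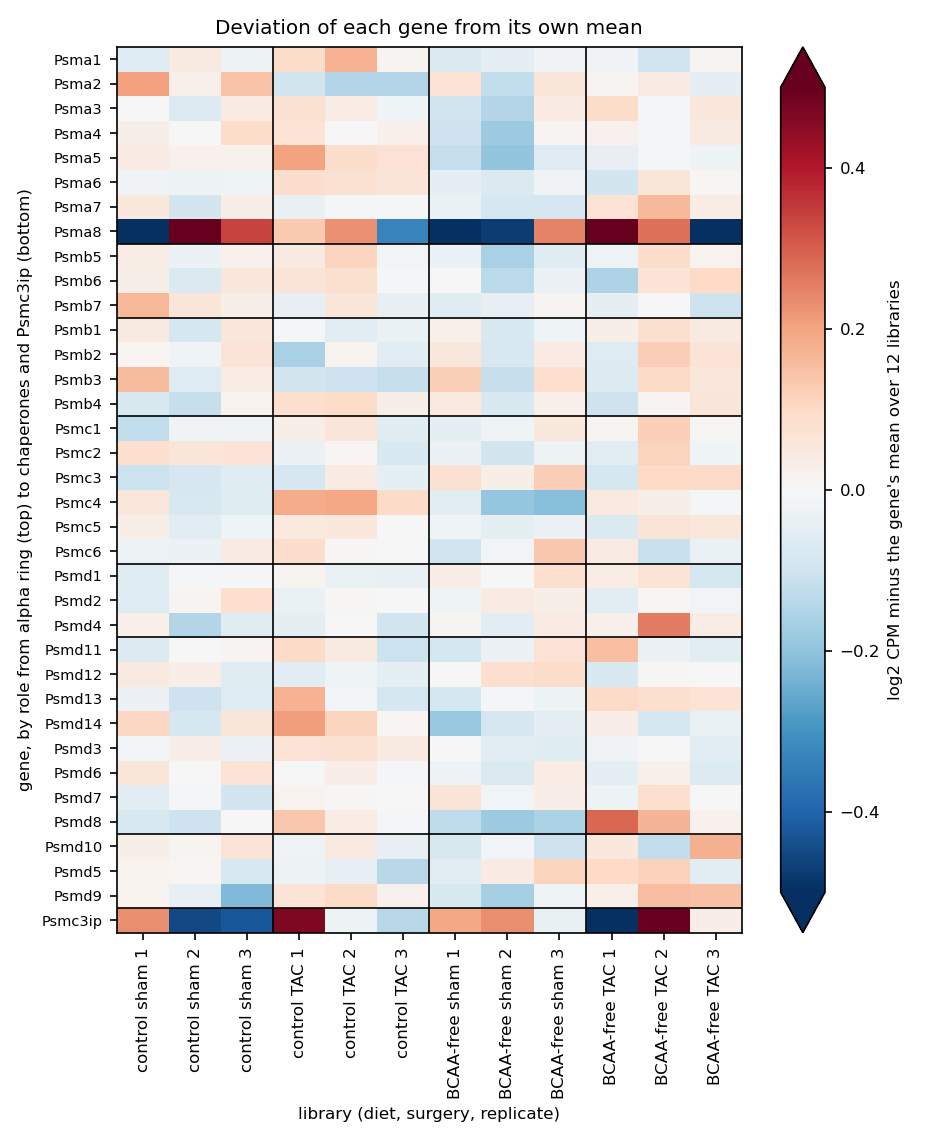
Deviation of each of the 36 genes (rows, by role) in each of the 12 libraries (columns) from that gene's mean, as log2 TMM-scaled CPM. Psmc4 is higher in the TAC columns of both diets, Psmd8 without overlap on the BCAA-free diet, and the widest deviations are those of the low genes Psma8 and Psmc3ip.

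TAC was compared with sham over both diets first, since this fit uses all 12 libraries. Psmd8, a subunit of the lid, and Psmc4, an ATPase of the base, rose in TAC hearts. No member fell, and 34 of 36 did not pass the test, limma on log2(deposited value + 4) with Benjamini-Hochberg adjustment over all genes and a threshold of 0.05. Of all 15524 genes tested, 17.0% passed in either direction, so the members' count of 2 is below that background. The median log2 difference of the members was 0.04 and that of all genes -0.0049. A positive difference was found for 25 of the 36 members and for 7570 of the 15524 genes. The members were measured in the same libraries, so their signs are not independent.

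Psmd8 had levels of 75.4, 74.1 and 79.7 CPM in control sham and 87.4, 81.7 and 79.1 CPM in control TAC. On the BCAA-free diet it had 72.9, 70.2 and 71.3 CPM in sham and 97.04, 89.6 and 80.8 CPM in TAC hearts. The libraries overlapped on the control diet and were apart on the BCAA-free diet. The mean TAC difference was 0.21 ± 0.05 (log2, SE; adjusted p = 0.01215), a rise of 15.5%.

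Psmc4 had 71.5, 65.1 and 66.0 CPM in control sham and 78.2, 78.8 and 73.5 CPM in control TAC. In BCAA-free hearts the levels were 66.2, 60.2 and 59.4 CPM after sham surgery and 71.2, 70.2 and 68.4 CPM after TAC. All TAC libraries lay above all sham libraries of the same diet. The mean difference was 0.17 ± 0.04 (log2, SE; adjusted p = 0.0161), a rise of 12.9%. Both genes passed in every leave-one-out fit and under every alternative that was run for this comparison, with adjusted p of up to 0.0457.

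Beside these rises, markers of several cell types differed between TAC and sham hearts, not all in 1 direction. Of the 8 cardiomyocyte markers, 1 was higher and 4 were lower without overlap in control TAC. In BCAA-free TAC 1 was higher and 1 was lower. The 7 fibroblast markers, all listed, summed to 768 to 807 CPM in control sham, 1094 to 2173 in control TAC, 582 to 629.9 in BCAA-free sham and 982 to 1871 in BCAA-free TAC. The 10 macrophage markers, all listed, summed to 286 to 297, 305 to 506, 212 to 232 and 376 to 483 CPM in that order. The rise of the fibroblast sum in TAC hearts was carried mainly by the collagen genes Col1a1 and Col3a1. In sham hearts Dcn was the largest part of the sum, at 328 to 393 CPM on the control diet and 351 to 383 on the BCAA-free diet. Of the 7 fibroblast genes 4 were higher without overlap in control TAC and 5 in BCAA-free TAC. Pdgfra was lower without overlap in control TAC (34.2 to 42.0 against 44.0 to 49.9 CPM). Of the 10 macrophage markers 5 were higher without overlap on the control diet and 10 on the BCAA-free diet. The 6 endothelial markers, all listed, summed to 822 to 1099, 796 to 894, 748 to 884 and 672 to 723 CPM in the same order of groups. No defining fibroblast or macrophage marker was at 0. The part of these cell types in the rise of Psmd8 and Psmc4 was not tested.

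The catalytic subunits did not pass in the mean TAC comparison. Psmb5, which cleaves after hydrophobic residues, had 101, 96.6 and 100.1 CPM in control sham, 102, 107 and 97.6 in control TAC, 96.6, 88.2 and 94.7 in BCAA-free sham and 97.1, 105 and 99.9 in BCAA-free TAC. Psmb6, which cleaves after acidic residues, had 127, 118 and 129 CPM, then 129.8, 131 and 123, then 124, 113 and 122, then 112, 130.0 and 133 in the same groups. Psmb7, which cleaves after basic residues, had 152, 142 and 139 CPM, then 132, 142 and 132, then 130.3, 132 and 137, then 132, 136 and 127. For each of the 3 the sham and TAC libraries overlapped on the control diet, and only Psmb5 was apart on the BCAA-free diet, with TAC higher. Mean TAC differences were 0.07 ± 0.04 for Psmb5, 0.04 ± 0.05 for Psmb6 and -0.06 ± 0.04 for Psmb7 (log2, SE; limma adjusted p = 0.275, 0.590 and 0.313).

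By role, the mean TAC differences lay in a narrow band. The 8 alpha genes ran from -0.13 (Psma2) to 0.09 (Psma5) on the log2 scale, and the 4 structural beta genes from -0.08 (Psmb3) to 0.05 (Psmb4). Other than Psmc4, at 0.17, the ATPases reached as low as -0.03 (Psmc2), and the scaffolds and ubiquitin receptor ran from -0.03 (Psmd2) to 0.05 (Psmd4). The lid genes ran from -0.07 (Psmd12) to 0.21 (Psmd8), and the chaperones from -0.02 (Psmd5) to 0.16 (Psmd9). The 95% intervals of all 31 subunit genes lay within a 1.25-fold change in either direction, the farthest bounds being -0.23 and 0.31 on the log2 scale.

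**Figure D3:**
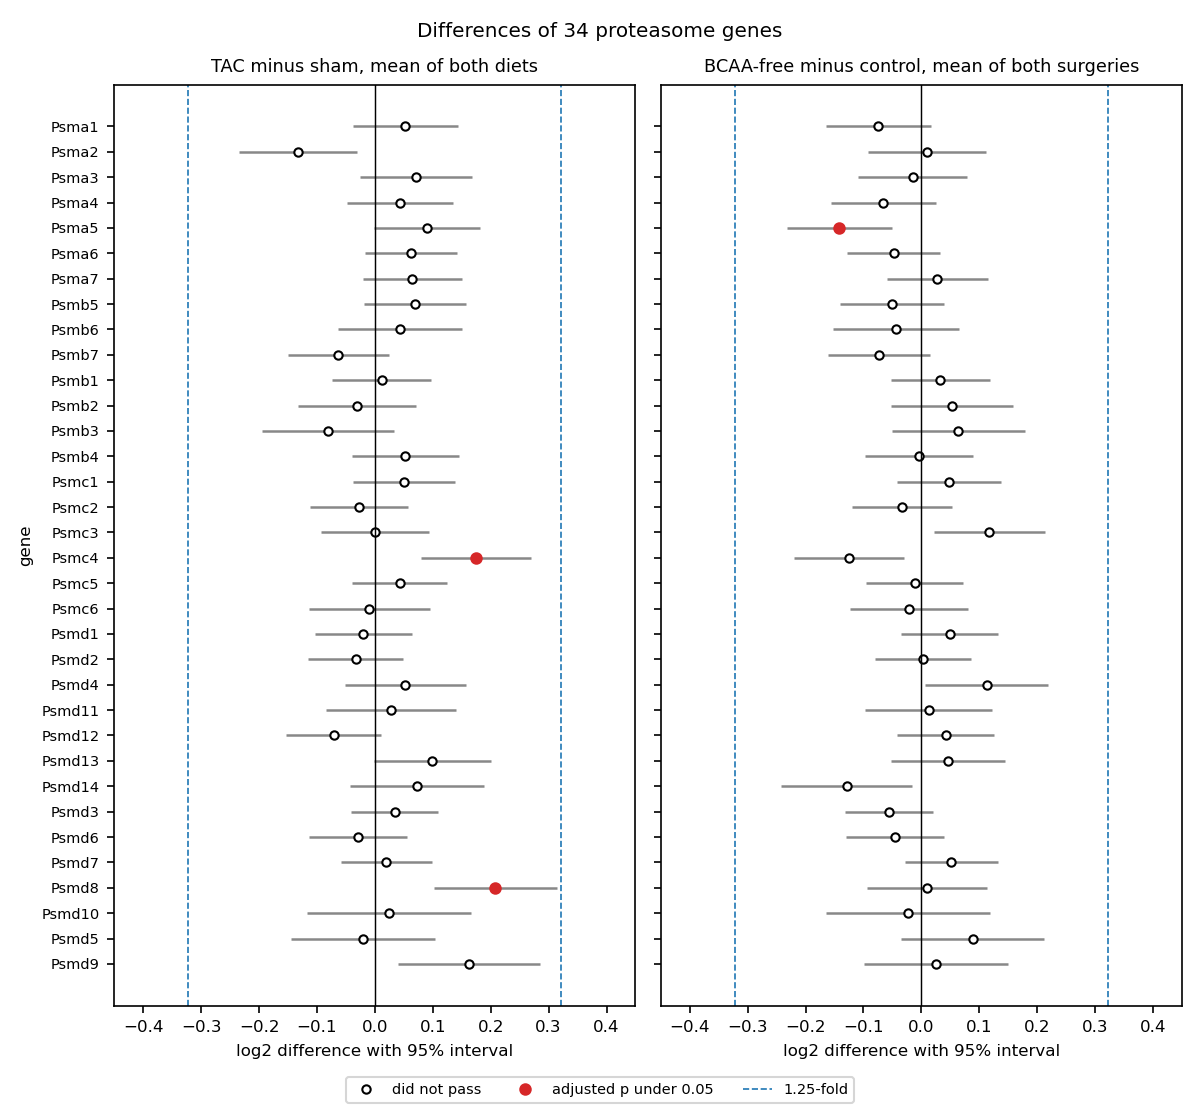
Log2 differences with 95% intervals from limma for 34 genes, TAC minus sham on the left and BCAA-free minus control on the right, each a mean over the other factor. Red points passed the test (Psmd8 and Psmc4 on the left, Psma5 on the right), and dashed lines mark a 1.25-fold change. Psma8 and Psmc3ip, whose intervals are wider, are not drawn.

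On the control diet alone, 0 of 36 members passed between TAC and sham with limma, where 5.34% of 15873 genes did. At an unadjusted p under 0.05 there were 2 members (5.56%, against 22.7% of all genes), Psmc4 higher and Psma2 lower. Psma2, an alpha subunit, had the smallest p. Its levels were 80.5, 71.2 and 77.2 CPM in sham and 65.5, 63.1 and 63.1 CPM in TAC hearts, without overlap, and the difference was -0.26 ± 0.07 (log2, SE; limma adjusted p = 0.0579). DESeq2 on the recovered reads (adjusted p = 0.0276) and edgeR in a fit of all 12 libraries (adjusted p = 0.0366) called it lower, limma did so without control sham replicate 2 (adjusted p = 0.046), and edgeR on this table alone called no member. In the authors' deposited table Psma2 was the member with an adjusted p under the threshold, at 0.0239.

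Groups did not overlap for 10 of the 36 members on the control diet, 7 of them higher in TAC hearts, against 28.0% of all genes tested. On the BCAA-free diet this held for 9 members, 8 of them higher, against 26.7% of genes. Both counts are near the background. Psmc4, Psma5 and Psmd9 were higher without overlap on both diets. The share of all genes that were so on both diets was not counted, so these members cannot be set against a background.

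On the BCAA-free diet, Psmd8 was the 1 member of 36 that rose between sham and TAC, where 4.32% of 15936 genes passed. The difference was 0.30 ± 0.08 (log2, SE; limma adjusted p = 0.0499), a rise of 23.5%. The call sat at the threshold: adjusted p was 0.0505 to 0.0782 under 5 alternatives, and leaving out 1 library gave 0.0137 to 0.193 and the call was kept in 1 of 6 fits, the one without BCAA-free TAC replicate 3. The authors' deposited table gave Psmd8 an adjusted p of 0.0169. Other members ran from -0.15 (Psmc3ip) to 0.34 (Psma8), both low genes. Of the 36 differences 24 were positive, against 7871 of the 15936 genes.

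The TAC response itself was then compared between the diets. No member of 36 passed this test of the difference with limma, and 0.0451% of 15524 genes did. Neither edgeR nor DESeq2 called a member. At an unadjusted p under 0.05 there was 1 member (2.78%, against 10.1% of all genes), Psma2, whose TAC difference was -0.26 on the control diet and -0.01 on the BCAA-free diet. In BCAA-free hearts its levels were 73.2, 64.1 and 72.8 CPM after sham surgery and 70.6, 71.9 and 67.5 CPM after TAC, which overlapped. The difference of responses was 0.25 ± 0.10 (log2, SE; limma adjusted p = 0.373). For Psmd8 it was 0.19 ± 0.10 (adjusted p = 0.544) and for Psmc4 -0.02 ± 0.09 (adjusted p = 0.970). The precision was lower here: the median 95% interval of the 36 members reached 0.19 to either side, and 25 of the 31 subunit genes were held within a 1.25-fold difference and all 31 within 1.5-fold.

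Diet was compared over both surgeries in the same way. Psma5, an alpha subunit, fell on the BCAA-free diet, and 35 of 36 members did not pass, where 11.8% of 15458 genes did. Its levels were 46.7, 46.0 and 46.1 CPM in control sham against 41.9, 39.6 and 43.4 in BCAA-free sham, and 52.1, 48.2 and 47.6 in control TAC against 44.1, 45.2 and 44.6 in BCAA-free TAC. The diets did not overlap after either surgery. The mean difference was -0.14 ± 0.04 (log2, SE; limma adjusted p = 0.0431), a change of -9.36%. No fit that left out 1 library passed (adjusted p = 0.0535 to 0.0982, difference -0.16 to -0.12), nor did quantile normalization (adjusted p = 0.0594) or a replicate block (adjusted p = 0.0558). Without control TAC replicates 2 and 3, which leaves 1 library in that group, the difference was -0.18. Markers of cell types also differed between the diets. In BCAA-free sham 10 of 10 macrophage, 4 of 7 fibroblast and 3 of 6 endothelial markers were lower without overlap, and the 3 adipocyte markers listed were higher. Of the 8 cardiomyocyte markers 2 were higher and 2 were lower there, and 3 of the 4 T cell markers listed were higher. In BCAA-free TAC 4 of 8 cardiomyocyte markers were higher, while 4 of 6 endothelial markers were lower and 1 was higher. The part of these cell types in the fall of Psma5 was not tested.

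The other members did not pass, and their differences lay on both sides of 0. The median log2 difference was -0.00066 over the 36 members and 0.007 over all genes, with 18 members on each side of 0. The catalytic genes Psmb5, Psmb6 and Psmb7 differed by -0.05, -0.04 and -0.07 (limma adjusted p = 0.4625, 0.620 and 0.268). After Psma5, the lowest subunit genes were the deubiquitinase Psmd14 at -0.13 and Psmc4 at -0.12, and the highest were Psmc3 at 0.12 and Psmd4 at 0.11. None of these passed. All 31 subunit genes had 95% intervals within a 1.25-fold change.

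**Figure D4:**
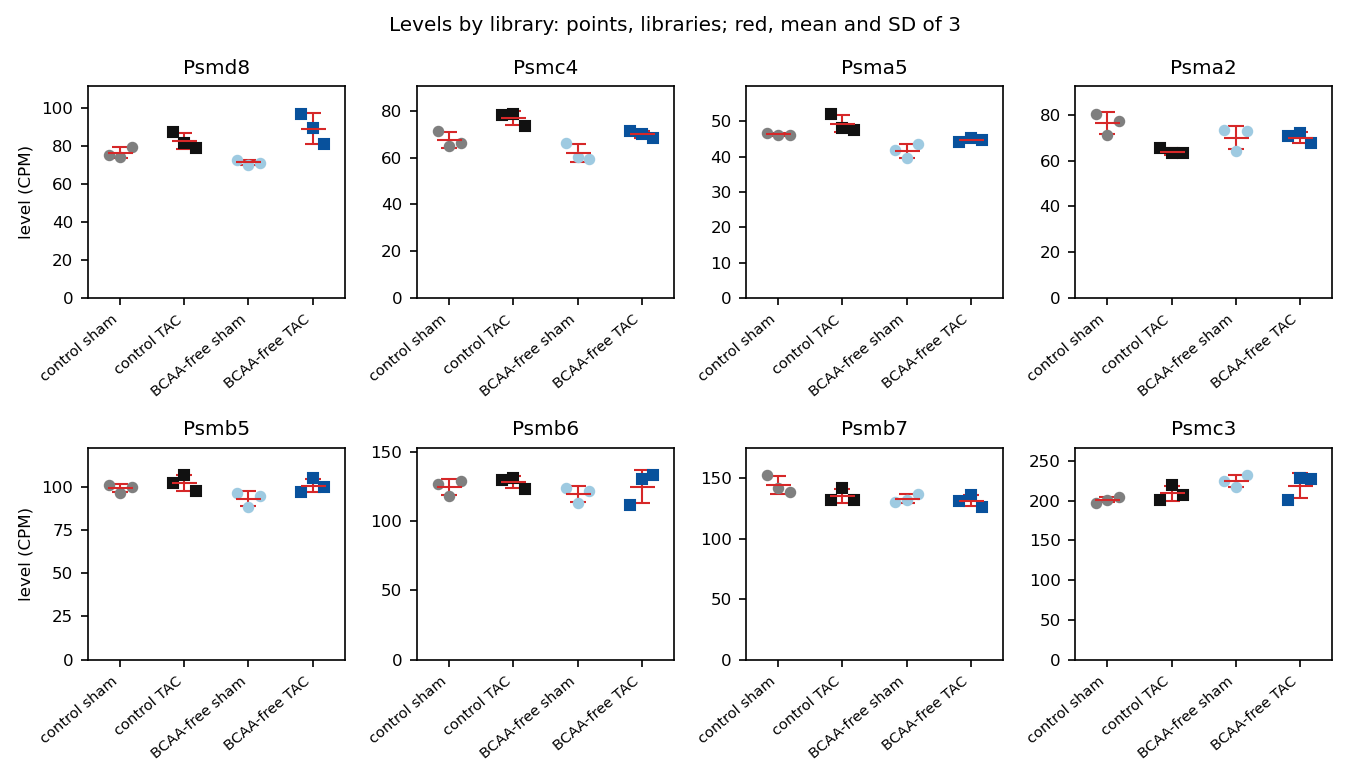
Levels (TMM-scaled CPM, axis from 0) of Psmd8, Psmc4, Psma5, Psma2, the catalytic Psmb5, Psmb6 and Psmb7, and Psmc3 in each library of the 4 groups. Red bars are the mean and SD of 3 libraries. Psma5 is lower on the BCAA-free diet after both surgeries, and the catalytic genes differ little.

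In sham hearts alone, 0 of 36 members passed between the diets with limma, against 2.81% of 15596 genes, and neither edgeR nor DESeq2 called one. At an unadjusted p under 0.05 there were 2 (5.56%, against 18.3% of all genes), Psmc3 higher and Psma5 lower on the BCAA-free diet. Psmc3, an ATPase of the base, had 198, 201 and 204 CPM on the control diet and 225, 217 and 232 CPM on the BCAA-free diet, without overlap. The difference was 0.17 ± 0.05 (log2, SE; limma adjusted p = 0.114). Exons of Psmc3 overlap those of Slc39a13 on the other strand, and the sources used here do not say whether reads were counted by strand, so its level is uncertain. The 14 core genes other than Psma8 had 13 negative differences, with a range from -0.14 (Psma5) to 0.06 (Psmb4) and a median of -0.05. The 19S genes had 10 positive and 7 negative differences, with a median of 0.01. Of all 15596 genes, 7720 had a negative difference. The core and 19S medians were not tested against each other.

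In TAC hearts, 0 of 36 members passed between the diets, against 3.38% of 16222 genes, and no member had an unadjusted p under 0.05 with limma, against 19.9% of all genes; edgeR and DESeq2 called none. Psma2 had the smallest p, with a difference of 0.13 ± 0.06 (log2, SE; limma adjusted p = 0.2755). Groups did not overlap for 7 members in sham hearts (23.2% of all genes) and for 9 in TAC hearts (25.6% of all genes), shares near the background. These 2 diet comparisons and the 2 TAC comparisons share libraries with each other.

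The genes around the proteasome were taken from 8 lists with 45 symbols, of which 42 were tested. Sem1, AI314180 and Ufd1 each stand there under 2 symbols. In the mean TAC comparison 0 rose and 2 fell, where 17.0% of all genes passed. In the mean diet comparison 1 rose and 1 fell, where 11.8% passed. In the difference of the TAC responses 0 passed, with 6 at an unadjusted p under 0.05, against 10.1% of all genes. None of the 5 assembly chaperones of the core (Psmg1 to Psmg4 and Pomp), none of the 5 activators and inhibitor (Psme1 to Psme4 and Psmf1), none of the 6 tested genes of the p97 unfoldase group and none of the 4 genes of transcription control passed in any comparison. Nfe2l1, which controls subunit genes, differed by -0.06 ± 0.04 between TAC and sham and by 0.05 ± 0.04 between the diets (log2, SE; limma adjusted p = 0.326 and 0.513).

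Fbxo32 (atrogin-1), a ubiquitin ligase of muscle, had 198, 196 and 184 CPM in control sham and 145, 149 and 165 CPM in control TAC. It fell on that diet (-0.34 ± 0.07, log2, SE; limma adjusted p = 0.0251), a call kept, of 6 leave-one-out fits, in the one without control TAC replicate 3 (adjusted p = 0.0243 there and up to 0.0914 in the others). It did not pass with edgeR in a fit of 12 libraries (adjusted p = 0.0736). On the BCAA-free diet Fbxo32 had 164 ± 14.2 CPM in sham and 161 ± 29.4 CPM in TAC hearts (SD, n = 3), which overlapped. Its TAC difference over both diets, -0.19, did not pass. The remaining 5 muscle ligases, Trim63 among them, did not pass in any comparison. AI314180, known as Ecm29, which binds proteasomes, fell over both diets (-0.19 ± 0.05, adjusted p = 0.0136), from 166 ± 2.76 CPM in control sham to 147 ± 12.9 in control TAC and from 162 ± 8.98 to 142 ± 1.92 CPM on the BCAA-free diet (SD, n = 3). Ubqln2, which shuttles ubiquitinated proteins to the proteasome, fell in the mean TAC comparison (-0.19 ± 0.06, limma adjusted p = 0.0293). It rose in the mean diet comparison (0.23 ± 0.06, limma adjusted p = 0.0164). Its mean level was 20.7 CPM in control sham and 19.7 in control TAC, whose libraries overlapped. On the BCAA-free diet it was 26.3 ± 1.71 CPM in sham and 21.2 in TAC hearts, a TAC difference of -0.31. The diet difference of Ubqln2 was 0.35 in sham and 0.11 in TAC hearts. The TAC call of Ubqln2 was lost in 5 of 12 leave-one-out fits: without control sham or control TAC replicate 1, BCAA-free sham replicate 2 or 3, or BCAA-free TAC replicate 1 (adjusted p = 0.0515 to 0.0742). With control TAC reduced to its replicate 1, its TAC difference was -0.21 and its diet difference 0.25.

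The immunoproteasome genes Psmb8, Psmb9 and Psmb10 encode the catalytic subunits that replace those of Psmb5, Psmb6 and Psmb7 in immune cells and after interferon. Together they summed to 77.2 ± 5.81 CPM in control sham, 73.1 ± 1.28 in control TAC, 60.5 ± 3.66 in BCAA-free sham and 72.3 ± 2.56 in BCAA-free TAC (SD, n = 3). Their ratio to the 3 constitutive catalytic genes was 0.210 ± 0.0216, 0.200 ± 0.00666, 0.175 ± 0.0132 and 0.203 ± 0.0161 in the same order. Psmb10 fell on the BCAA-free diet in sham hearts (-0.31 ± 0.07, log2, SE; limma adjusted p = 0.04135), from 49.5, 52.2 and 53.4 CPM to 43.9, 42.3 and 38.2 CPM. Psmb8 fell in the mean over both surgeries (-0.30 ± 0.09, limma adjusted p = 0.0408). Its diet difference was -0.44 in sham hearts and -0.15 in TAC hearts. In TAC hearts its libraries overlapped, with 15.4, 15.7 and 14.9 CPM on the control diet and 13.5, 11.9 and 16.3 CPM on the BCAA-free diet. Of 6 leave-one-out fits, Psmb10 passed in the one without control sham replicate 3 (adjusted p = 0.0471, up to 0.1697 in the others). Of 12, Psmb8 passed without control sham replicate 1 and without BCAA-free TAC replicate 3 (adjusted p = 0.0143 and 0.0158, up to 0.1018 in the others). With control TAC reduced to its replicate 1 the difference of Psmb8 was -0.30. Psmb10 did not pass with edgeR in a fit of 12 libraries (adjusted p = 0.0653), nor Psmb8 with quantile normalization (adjusted p = 0.0524). The TAC response of Psmb10 differed between the diets by 0.31 ± 0.11 (adjusted p = 0.325). The summed levels of the 10 macrophage markers were 212 to 232 CPM in BCAA-free sham and 286 to 297 CPM in control sham, and each of the 10 was lower without overlap. The 7 fibroblast markers were also lower in sum (582 to 629.9 against 768 to 807 CPM). The 4 T cell markers listed, of 7, were higher in sum (4.96 to 6.67 against 1.46 to 3.24 CPM), 3 of the 4 without overlap. These T cell genes had few reads, such as 1 to 117 for Cd8a over the 12 libraries. The part of these cell types in the immunoproteasome results was not tested.

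Among 19S subunits whose symbols fall outside the naming rule, Adrm1, a ubiquitin receptor of the base, did not pass in any comparison, and Sem1, a small lid subunit, passed in 1. Sem1 had 87.0, 90.2 and 94.4 CPM in control TAC and 106, 124 and 119 CPM in BCAA-free TAC, without overlap. It was higher on the BCAA-free diet in TAC hearts (0.36 ± 0.08, log2, SE; limma adjusted p = 0.0377), a call kept, of 6 leave-one-out fits, in the one without BCAA-free TAC replicate 1 (adjusted p = 0.0132, up to 0.158 in the others). With control TAC reduced to its replicate 1 the difference was 0.43. In sham hearts it had 118, 92.4 and 109 CPM on the control diet and 119.9, 95.7 and 107 CPM on the BCAA-free diet, which overlapped. The difference of the TAC responses of Sem1 between the diets was 0.33 ± 0.13 (adjusted p = 0.396).

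**Figure D5:**
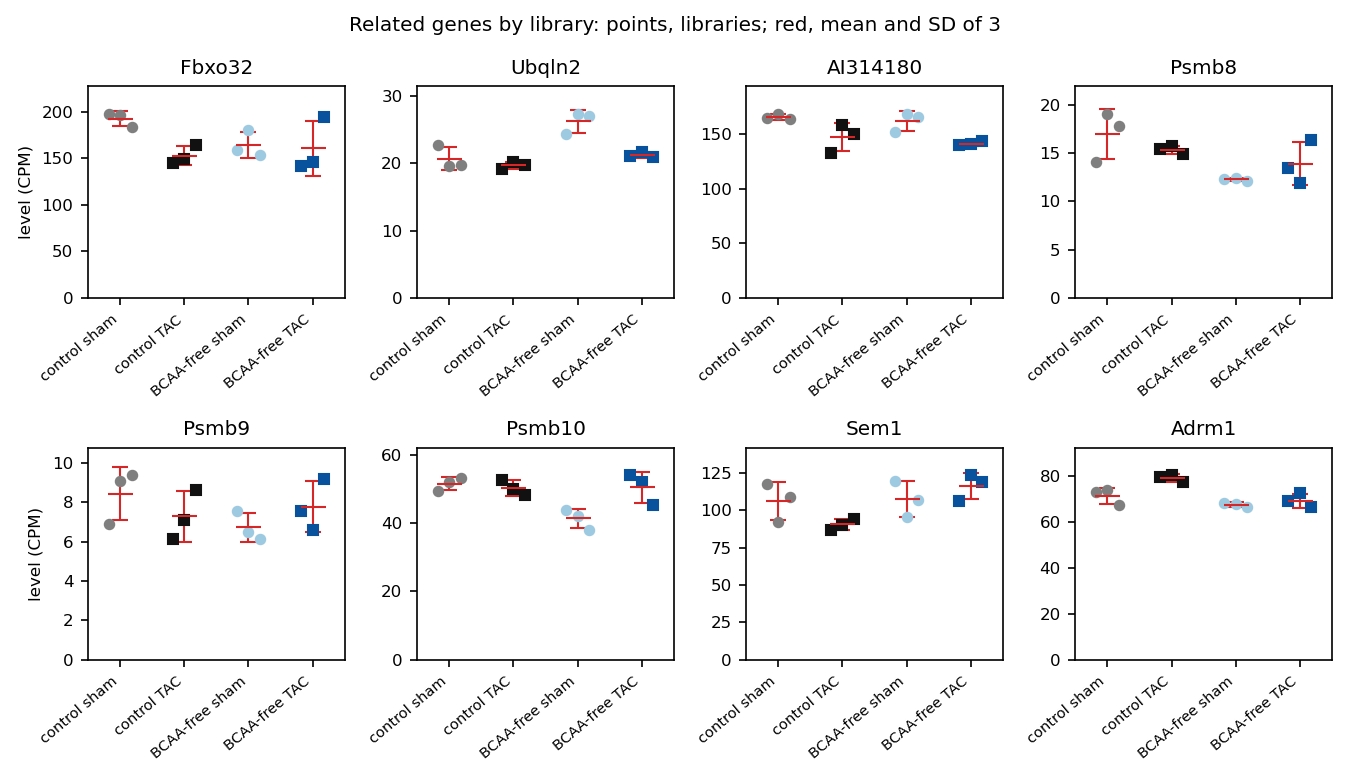
Levels (TMM-scaled CPM, axis from 0) of Fbxo32, Ubqln2, AI314180, the immunoproteasome genes Psmb8, Psmb9 and Psmb10, Sem1 and Adrm1 in each library of the 4 groups, with the mean and SD of 3 in red. Psmb10 is lowest in BCAA-free sham, at 38.2 to 43.9 CPM, and Sem1 in TAC hearts is lower on the control diet, at 87.0 to 94.4 CPM, than on the BCAA-free diet, at 106 to 124 CPM.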

How the data were processed

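Polyadenylated RNA of whole hearts was sequenced in 12 libraries, 3 per group. The submitters' processing notes name DESeq2, Subread 1.5.2, STAR 2.5.2b and Trimmomatic 0.36 with the build GRCm38 (mm10). Settings and the use of strand in counting are not given there. The authors deposited 4 tables, 1 per pair of groups, with 15613 to 16234 genes each. The deposited library columns hold a signal, reads divided by a size factor per table, as the values show. The deposited fold changes are log2 values and stand beside the authors' p-values, per the file headers. Whole reads were recovered from these columns (100% of values within 0.001 of a whole number; 0 genes differed between the tables of a library), 29922725 to 46086883 per library over the 15318 genes in all tables. Intervals on such reads would cover counting error only.

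The main test was limma 3.58.1 (R 4.3.3) with an intensity trend on log2(value + 4) for genes whose mean reached 10, within each table, and over the 12 columns of both TAC or both diet tables for mean effects and the difference of responses. All 36 members passed that filter in every comparison. Fold changes are on this scale, which understates low genes. Benjamini-Hochberg adjustment ran over every gene tested, with a threshold of 0.05. The script was tested on simulated data. Levels are from recovered reads scaled with TMM (edgeR 4.0.16), and levels per length use exons of GENCODE M21 (GRCm38). Alternatives were the pseudocount, the filter, quantile normalization, a replicate block, edgeR and DESeq2 1.42.0 on recovered reads, and leaving out each library; leaving out control TAC replicates 2 and 3 together was added after seeing the data.

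The members and lists were chosen with earlier results of these data known. A further related list is not reported here. Named were the catalytic genes, up to 4 members per comparison with the smallest p among those called, or the smallest p where none was called, the highest and lowest per length, and up to 2 genes per related list with the smallest p; members at the ends of a range or in a small count were named after their values were seen. Exons of Psmb7, Psmc3, Psmc3ip, Psmd1 and Psmd13 overlap those of another listed gene, and 4 annotated pseudogenes carry a member's name, so reads may be shared. The p-values in tables of the authors were used only where named.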

Additional observations from a re-analysis of the deposited data

How the results depend on the processing

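The number of members called kept within 1.5 times of the value given for diet in sham hearts, diet in TAC hearts, the mean TAC effect and the difference of the TAC responses under all alternatives run. For TAC on the control diet it was 1 (Psma2) with DESeq2 and 1 with edgeR in a fit of 12 libraries, and 0 to 1 when 1 library was left out. For TAC on the BCAA-free diet it was 0 with a pseudocount of 1, a mean of at least 50, quantile normalization, edgeR and the replicate block, and 0 to 1 with 1 library left out. For the mean diet effect it was 0 with quantile normalization, with the replicate block and without control TAC replicates 2 and 3, and 0 to 1 with 1 library left out, where the 1 was Psmc3, higher without BCAA-free TAC replicate 1, and not Psma5. When not due to fewer samples, the cause was not tested. The genes that were refitted kept their direction. The mean TAC effect kept 2 to 3 members in each fit. The highest over lowest level per length was 5.54 with the longest transcript.

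Same-numbered libraries correlated by -0.09 to 0.22, so the replicate numbers were not taken as pairs. Besides the counts of 0 above, the replicate block gave 0 members on the control diet, in both diet comparisons and in the difference of responses, and 2 in the mean TAC effect.

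Counts over all genes moved more. DESeq2 called 1480 for TAC on the control diet, 1155 on the BCAA-free diet, 806 for diet in sham hearts, 1136 in TAC hearts and 108 for the difference of responses, against 848, 688, 438, 548 and 7 with limma. The replicate block gave 713, 1275 and 3 for the last 3; edgeR in a fit of 12 libraries gave 154 and 1195 for diet in sham and TAC hearts; a pseudocount of 1, a mean of at least 50 and quantile normalization gave 4 each for the difference. Leaving out 1 library gave 300 to 659, 106 to 1199, 68 to 1020, 138 to 1044 and 2 to 15, with 1732 to 2889 for the mean TAC effect (2633) and 1062 to 2484 for the mean diet effect (1819). Leaving out control TAC replicates 2 and 3 leaves 1 library in that group, which is assumed to vary like the others, so a lost call there may come from the lost samples. The counts were 0 for diet in TAC hearts, 1 for the difference and 850 for the mean diet effect. With 3 libraries a group, the median 95% interval of a member reached 0.13 to 0.15 (log2) to either side in a pairwise comparison. That is narrower than what the adjusted test detects: Psma2 at -0.26 on the control diet did not pass.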
